A study of Mus musculus with 2 samples.

Results

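The genes described here encode proteins of the Z-disc and of its mechanosensing partners: Actn2, Actn3, Myoz1, Myoz2, Ldb3, Tcap, Csrp3, Ankrd1, Ankrd2 and Fhl2. They are a list of 10 symbols out of 10543 genes with a single symbol in the table, and each had 1 locus there. This list and the comparison lists below were drawn up by function, with earlier results of these data known. All 10 genes passed the filter of 1 FPKM in the mean of the libraries (fragments mapped to a gene, scaled by transcript length and by library size). The samples were thigh skeletal muscle of B6C3F1 mice, a hybrid strain, aged 26 months. In the calorie restriction (CR) group the mice had eaten about 40% fewer calories over 25 months, on a diet enriched so that protein, vitamins and minerals per body weight stayed near the control intake. The control group ate the control diet. Each group had 1 library of poly(A) RNA read as 76-bp paired ends, so no difference below has a replicate check and no test or error can be given. The sources used here do not say how many mice went into each library.

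The Z-disc borders the sarcomere, the contractile unit of striated muscle. There alpha-actinin ties thin filaments of neighbouring sarcomeres together, and titin, the giant elastic protein, is anchored. Proteins bound to alpha-actinin and to titin, among them LIM-domain and ankyrin-repeat proteins, also move to the nucleus or dock signalling enzymes such as the phosphatase calcineurin, which is why the Z-disc is regarded as a site where fibres sense load. Several of these genes come in pairs, with a form typical of fast fibres and a form typical of slow fibres and heart.

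The promoter windows of the genes with the largest differences, Csrp3, Myoz2 and Ankrd1, and of Ankrd2, the paralog of Ankrd1, are shown. These genes are described most closely below, and no value was tested against a promoter. They are RefSeq windows on GRCm38.p6, from 250 bases before to 50 bases after a start site, written 5′ to 3′ on the gene's strand. Of Csrp3, which has 2 start sites in the RefSeq table, the upstream one is shown.
Csrp3, chr7:48848002-48848301, minus strand: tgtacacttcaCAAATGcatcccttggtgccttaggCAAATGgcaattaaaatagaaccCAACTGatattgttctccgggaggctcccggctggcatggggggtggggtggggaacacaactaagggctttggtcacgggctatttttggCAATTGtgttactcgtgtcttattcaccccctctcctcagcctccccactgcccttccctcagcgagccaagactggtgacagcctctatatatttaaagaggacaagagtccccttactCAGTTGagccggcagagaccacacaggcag
Myoz2, chr3:123034938-123035237, minus strand: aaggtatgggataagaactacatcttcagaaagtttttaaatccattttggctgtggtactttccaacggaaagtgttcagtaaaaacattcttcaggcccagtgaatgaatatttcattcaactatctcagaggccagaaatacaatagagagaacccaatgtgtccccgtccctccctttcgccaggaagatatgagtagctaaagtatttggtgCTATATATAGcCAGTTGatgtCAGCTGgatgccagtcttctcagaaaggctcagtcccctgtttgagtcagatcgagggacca
Ankrd1, chr19:36119795-36120094, minus strand: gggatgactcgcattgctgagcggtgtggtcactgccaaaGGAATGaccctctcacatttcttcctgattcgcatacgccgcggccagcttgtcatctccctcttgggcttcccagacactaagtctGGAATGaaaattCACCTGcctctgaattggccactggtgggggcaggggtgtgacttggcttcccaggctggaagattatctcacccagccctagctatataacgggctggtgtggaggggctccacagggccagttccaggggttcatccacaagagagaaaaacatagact
Ankrd2, chr19:42035777-42036076, plus strand: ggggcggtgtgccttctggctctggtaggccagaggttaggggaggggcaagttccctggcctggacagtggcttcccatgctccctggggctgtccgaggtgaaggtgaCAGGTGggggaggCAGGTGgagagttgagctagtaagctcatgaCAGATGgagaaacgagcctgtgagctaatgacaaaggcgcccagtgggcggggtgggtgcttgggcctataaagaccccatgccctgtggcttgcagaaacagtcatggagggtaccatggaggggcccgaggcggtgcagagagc
Capitals mark matches, on either strand, to 4 motifs: M-CAT (CATTCC, bound by TEAD factors), E-box (CANNTG, bound by myogenic factors), the MEF2 motif and the CArG motif of SRF. Promoter windows were found for 7 of the 10 genes; none was matched for Actn3, Myoz1 and Tcap. The Ankrd1 window held M-CAT letters at 2 places, from 210 to 205 and from 123 to 118 bases before the start, both as the reverse complement GGAATG. Of 32851 mouse promoter windows, 14.7% held at least 1 such match and 1.36% held at least 2. Myoz2 held a MEF2 match from 33 to 24 bases before the start, as 3.19% of windows did, and next to it 2 E-boxes. Csrp3 held 5 E-boxes and no other match. Ankrd2 held 3, as did Actn2 and 1 of the 2 windows of Fhl2. Of all windows, 72.3% held at least 1 E-box and 39.6% at least 2. Fhl2 held a MEF2 match in 1 of its 2 windows and a CArG match in both, Ldb3 a CArG match in both of its windows, and 1.63% of all windows held a CArG match. None of the marked motifs overlap in the 4 windows shown, and a match is a description of the letters only.

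Csrp3 and Myoz2, a LIM protein and a calsarcin of slow and cardiac muscle, were more than 2-fold higher in the CR library. Ankrd1, a stress-induced ankyrin-repeat protein, was more than 2-fold lower there. The other 7 genes, which include the structural core of alpha-actinin, telethonin and ZASP, stayed within 2-fold. The 2 of 10 genes higher compare with 8.01% of the 10533 genes kept, and the 1 of 10 lower with 10.7%. Counts of 2 and 1 in 10 lie near those shares and say nothing about the list as a whole, so the values of single genes are given. The median log2 ratio of the 10 genes, CR over control on the scale of FPKM + 1, was 0.06, against -0.03 over all genes kept, and 5 genes stood above 0 and 5 below. Among the 7886 genes whose mean reached 100 FPKM, which include all 10, 4.95% were at least 2-fold higher and 5.29% at least 2-fold lower. No gene of the list was listed at 0 in either library.

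**Figure D1:**
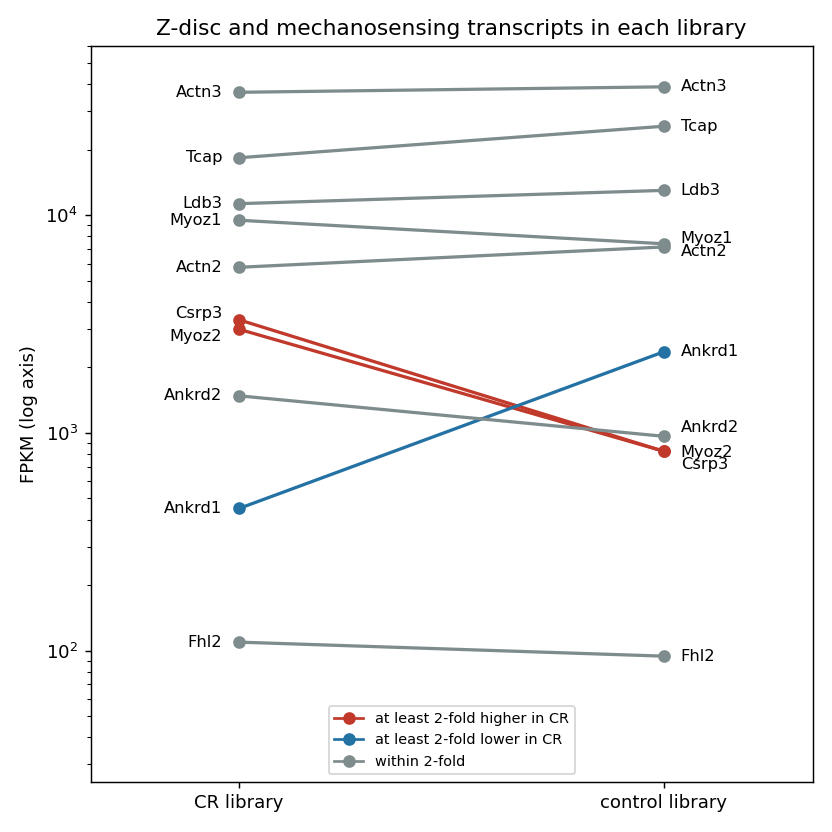
FPKM (log axis) of each of the 10 genes in the CR library (left) and the control library (right), 1 point per library joined by a line. Csrp3 and Myoz2 climb towards the CR side, Ankrd1 lies at 450.1 FPKM in CR against 2361 FPKM in control, and the other 7 lines are close to level.

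The alpha-actinins were abundant and close together in the libraries. Actn3, the alpha-actinin restricted to fast fibres (mm9 chromosome 19, 4861219 to 4877977, minus strand), stood at 36745 FPKM in the CR library and 38928 FPKM in the control library. That made it the most abundant of the 10 genes in both, at rank 19 of all genes in CR and 16 in control. Its log2 ratio of -0.08 was the nearest to 0 on the list. The Ctsf locus, a cathepsin gene on the opposite strand, spans all 16759 bases of the Actn3 locus in the table; it stood at 587 FPKM in CR and 742 FPKM in control. The protocol given keeps no strand information, and the sources used here do not say how reads were divided between these overlapping loci. Actn2, the form made in all fibres and in heart (chromosome 13, 12358749 to 12432999, minus strand), stood at 5769.8 FPKM in CR and 7155 FPKM in control, a log2 ratio of -0.31. Actn2 made up 13.6% of the summed FPKM of Actn2 and Actn3 in CR and 15.5% in control, so fast-fibre alpha-actinin was the main form in both libraries.

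The calsarcins, which bind alpha-actinin and hold calcineurin at the Z-disc, differed between the fast and the slow form. Myoz2, the calsarcin of slow fibres and heart (chromosome 3, 122709124 to 122737905, minus strand), stood at 2993 FPKM in the CR library and 824 FPKM in the control library, a fold of 3.63 and a log2 ratio of 1.86. It ranked 269 among all genes in CR and 1196 in control. Myoz1, the calsarcin of fast fibres (chromosome 14, 21464900 to 21475878, minus strand), stood at 9489.6 FPKM in CR and 7399 FPKM in control, a log2 ratio of 0.36 that turned to -0.04 when the libraries were scaled to equal sums of skeletal muscle markers. Myoz2 made up 24.0% of the pair's summed FPKM in CR and 10.0% in control, and the ratio of Myoz2 to Myoz1 was 2.83 times as high in CR. Both libraries held more Myoz1 than Myoz2, by 3.17 times in CR and 8.98 times in control. Myoz3, another calsarcin of fast fibres and was picked for mention after its value was seen, stood at 2214 FPKM in CR and 2604 FPKM in control.

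**Figure D2:**
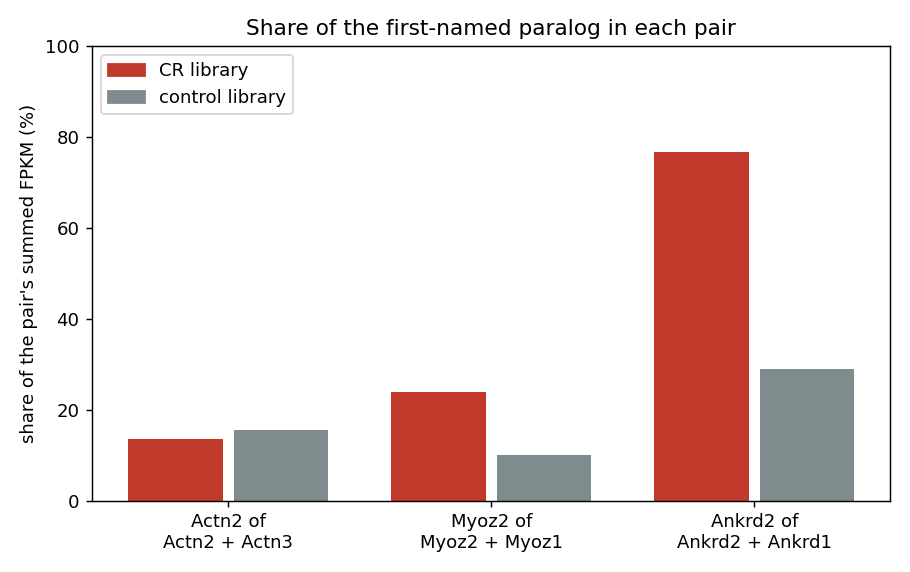
Share (%) of the first-named gene in the summed FPKM of each paralog pair, in the CR library (left bar) and the control library (right bar). The Actn2 share differs little, the Myoz2 share is 24.0% in CR against 10.0% in control, and the Ankrd2 share is 76.7% in CR against 29.0% in control.

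Telethonin and ZASP, scaffolds at the titin and alpha-actinin ends, were slightly lower in CR. Tcap encodes telethonin, which caps the titin end in the Z-disc (chromosome 11, 98244719 to 98246273, plus strand). It stood at 18385 FPKM in the CR library and 25659 FPKM in the control library, a log2 ratio of -0.48 that was the lowest among the 7 genes within 2-fold. Ldb3 encodes ZASP, a PDZ and LIM protein that binds alpha-actinin (chromosome 14, 35339885 to 35401876, minus strand); it stood at 11310.5 FPKM in CR and 13017 FPKM in control, a log2 ratio of -0.20. The Ldb3 locus carries 7 isoform names under 1 value, so a difference in splicing between its long and short forms would not be seen. The log2 ratios of both genes stayed below 0 in all 10 other settings tried. Actn3, Tcap and Ldb3 together held 73.8% of the summed FPKM of the 10 genes in CR and 79.8% in control.

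Csrp3 encodes muscle LIM protein, a partner of telethonin and alpha-actinin found in slow fibres and heart. Its locus (chromosome 7, 56085768 to 56103455, minus strand) stood at 3309 FPKM in the CR library and 823.8 FPKM in the control library, a fold of 4.01 and a log2 ratio of 2.0, the highest of the 10 genes. Csrp3 and Myoz2 were nearly equal in the control library, at 823.8 and 824 FPKM. The ratio of Csrp3 to Tcap, its partner, was 0.180 in CR and 0.0321 in control. Of its relatives, Csrp1 stood at 233 FPKM in CR and 208 FPKM in control, and Csrp2, a LIM protein of smooth muscle, was at 68.2 FPKM in CR and listed at 0 in control; both were picked for mention after their values were seen. Fhl2, a LIM-only protein abundant in heart that binds titin and acts on transcription (chromosome 1, 43179919 to 43220806, minus strand), was the least abundant of the 10 genes, at 109 FPKM in CR and 94.3 FPKM in control. Its log2 ratio of 0.21 turned to -0.18 under scaling to equal muscle markers.

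The muscle ankyrin-repeat proteins bind titin and can enter the nucleus, and the order of the pair differed between the libraries. Ankrd1, known as CARP, is a heart protein that skeletal muscle makes after injury or loss of its nerve. Its locus (chromosome 19, 36186455 to 36194337, minus strand) stood at 450.1 FPKM in the CR library and 2361 FPKM in the control library, 5.24-fold lower in CR with a log2 ratio of -2.39. It ranked 2632 among all genes in CR and 314 in control. Ankrd2, a stretch-responsive form typical of slow fibres (chromosome 19, 42110362 to 42119741, plus strand), stood at 1481 FPKM in CR and 965 FPKM in control, a log2 ratio of 0.62 and so within 2-fold. The ratio of Ankrd2 to Ankrd1 was 3.29 in CR and 0.409 in control, 8.05 times as high in CR. Ankrd2 was the more abundant of the pair in the CR library and Ankrd1 in the control library. Ankrd23, the remaining member of the family, picked for mention after its value was seen, was far more abundant than either, at 9994 FPKM in CR and 14664 FPKM in control.

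**Figure D3:**
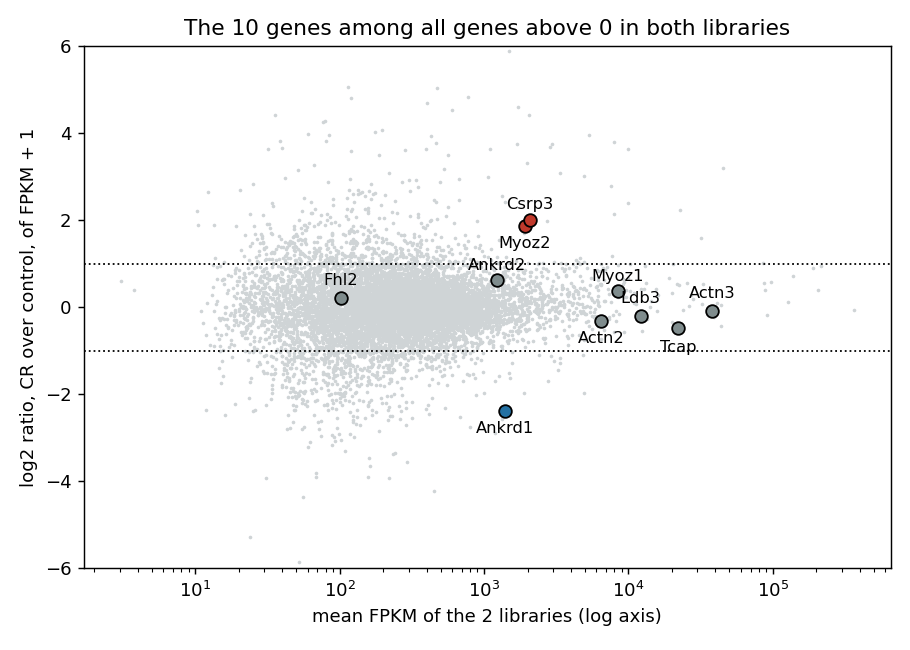
Log2 ratio of CR over control (FPKM + 1) against mean FPKM (log axis) for the 9844 genes above 0 in both libraries (pale points), with the 10 genes named. Dotted lines mark 2-fold; Csrp3 (2.0) and Myoz2 (1.86) lie above them, Ankrd1 (-2.39) below, and the others between.

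Csrp3, Myoz2 and Ankrd1 lay towards the ends of the range of all genes. The log2 ratio of Csrp3 lay at percentile 96.6 and that of Myoz2 at percentile 96.3 of the 10533 genes, and that of Ankrd1 at percentile 4.88. The transcripts share no stretch of read length with other genes: in GENCODE M21 transcripts, 0 of the 998 distinct 76-base windows of Csrp3, 0 of 1106 of Myoz2 and 0 of 2019 of Ankrd1 were found in transcripts of any other gene on either strand. The same held for the other 7 genes, among them Actn2 (0 of 3047) and Actn3 (0 of 2812). Apart from Ctsf, the loci that overlap a gene of the list were unnamed, 1 at the end of Actn2 (under 3 FPKM in both libraries) and 1 within Myoz1 (88.5 FPKM in CR and 42.9 FPKM in control).

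Other Z-disc genes were compared from a list of 24, of which 21 were measured. Of these, 0 were past 2-fold on the higher side in CR and 3 on the lower side, with a median log2 ratio of -0.14. Over all genes kept, 8.01% were at least 2-fold higher and 10.7% at least 2-fold lower, so the count of 3 lies near that share. The lower genes were Xirp1, an actin-binding protein of stressed and repairing fibres (514 FPKM in CR, 1441 FPKM in control), Flnc, muscle filamin (1947 and 4724 FPKM in CR and control), and Kbtbd5, now called Klhl40, which stabilises thin-filament proteins (320.2 FPKM in CR, 673 FPKM in control). Cryab, the small heat shock protein that guards desmin and titin, was the most abundant of the list, at 11325 FPKM in CR and 10670.2 FPKM in control. Titin (Ttn) and nebulin (Neb) themselves were listed at 0 in both libraries, so their levels could not be compared, and desmin shares a merged locus with Speg and was left out.

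Relatives of the 10 genes showed no shared direction: of 13 measured, 2 were past 2-fold on the higher side in CR, 1 on the lower side, and 10 were within it. The higher ones were Csrp2, given above, and Pdlim1, a PDZ and LIM protein, at 1262 FPKM in CR and 627 FPKM in control, a log2 ratio of 1.01 that fell under the threshold when the libraries were rescaled to equal sums. The lower one was Pdlim3, known as ALP, which binds alpha-actinin at the Z-disc, at 3065 FPKM in CR and 6557 FPKM in control. Fhl1, the LIM-only protein most abundant in skeletal muscle, stood at 17132 FPKM in CR and 8957 FPKM in control, a log2 ratio of 0.94. Partners of titin and the M-band were measured in full, with 2 of 13 past 2-fold on the lower side in CR, 0 on the higher side and a median log2 ratio of -0.44. The shares over all genes kept were 8.01% higher and 10.7% lower, and the counts of both lists are small beside them. The 2 were the ubiquitin ligase Trim63 (1738 FPKM in CR, 4762 FPKM in control) and the autophagy receptor Sqstm1 (1799 FPKM in CR, 4259.6 FPKM in control), both of which dock at or near the titin kinase domain. Myom2, the M-band myomesin most abundant here, stood at 7319 FPKM in CR and 9074 FPKM in control.

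Signalling genes tied to the Z-disc were mostly within 2-fold. None of 10 measured genes of calcineurin and NFAT was past 2-fold in either direction, with a median log2 ratio of -0.36. When sums were made equal leaving out the 50 most abundant genes, 1 was past it on the lower side in CR. When muscle marker sums were made equal, 2 were. Over all genes kept, 11.6% and 18.2% were at least 2-fold lower in these 2 settings. The largest difference was that of Cabin1, a calcineurin inhibitor (217 FPKM in CR, 428 FPKM in control), and the catalytic subunit Ppp3cb stood at 1179 FPKM in CR and 1183 FPKM in control. Of 17 measured genes of the YAP, TEAD and SRF pathways, in which Ankrd1 is a textbook target of YAP, 0 were past 2-fold on the higher side and 2 on the lower side in CR, with a median of -0.21. The 2 lower genes were Cyr61, a matricellular YAP target (279.7 FPKM in CR, 642 FPKM in control), and Vgll2, a muscle cofactor of TEAD (301 FPKM in CR, 637 FPKM in control). Over all genes kept, 10.7% were at least 2-fold lower, so this count lies near that share. Other YAP targets of the list were within 2-fold, with Ctgf at a log2 ratio of -0.75 and Amotl2 at 0.12. Both were picked for mention after their values were seen. The factors themselves lay within 2-fold, with Yap1 at 568 FPKM in CR and 626 FPKM in control and Tead1 at 1037 FPKM in CR and 1196 FPKM in control; Tead1 and Yap1 were picked for mention after their values were seen.

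**Figure D4:**
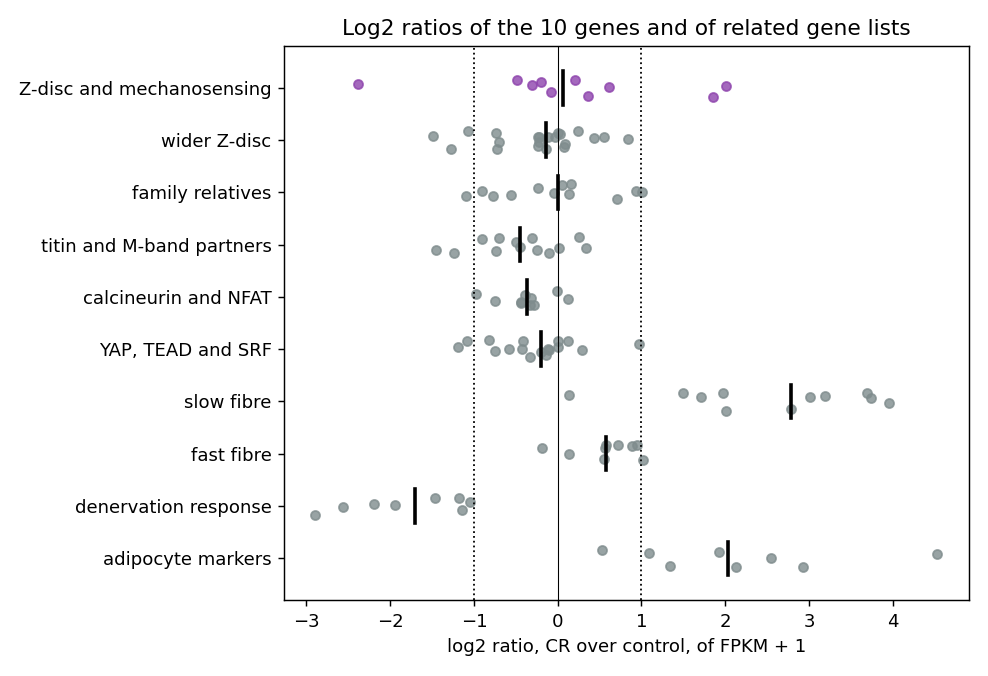
Log2 ratio of CR over control (FPKM + 1) for each of the 10 genes (purple) and for each gene of 9 comparison lists (grey), leaving out genes listed at 0 in a library; thick ticks are medians and dotted lines mark 2-fold. The 10 genes span -2.39 to 2.0, slow fibre genes lie to the right with 10 of 11 past 2-fold, and denervation genes lie to the left.

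Csrp3 and Myoz2 stood higher in the library in which slow fibre genes and adipocyte markers stood higher. Ankrd1 stood lower in the library in which denervation genes stood lower. Of 11 slow fibre genes 10 were at least 2-fold higher in CR, with a median log2 ratio of 2.79, above the 2.0 of Csrp3 and the 1.86 of Myoz2. Relative to slow myosin Myh7, both genes were scarcer in CR. The ratio of Csrp3 to Myh7 was 0.0404 in CR and 0.0920 in control. That of Myoz2 to Myh7 was 0.0365 in CR and 0.0920 in control. This holds for Myh7, which can share reads with its paralog Myh6, and not for every slow fibre gene. The log2 ratios of Myl3 (1.706), Casq2 (1.497) and Pln (0.137) lay below those of Csrp3 and Myoz2. The other slow fibre genes lay above Myoz2. Over all lists and from the 2 libraries alone, the same genes were nearest in log2 ratio to Csrp3 and to Myoz2. They were the slow myosin Myh7b (2.0), the slow calcium pump Atp2a2 (1.97) and the adipocyte marker Cidec (1.93), a lipid droplet protein. Myh7b was the nearest to Csrp3 and Cidec the nearest to Myoz2. Of 9 adipocyte markers 8 were at least 2-fold higher in CR, with a median log2 ratio of 2.13. Of 9 measured fast fibre genes 1 was at least 2-fold higher and 0 were lower, with a median of 0.58. All 10 denervation genes were at least 2-fold lower in CR (median -2.07, or -1.71 without the 2 genes listed at 0 in CR). Only genes of the comparison lists were searched for those nearest to Ankrd1. Outside the lists some genes lay nearer, such as 1700123O20Rik (-2.39). Within the lists the nearest were the denervation genes Runx1 (-2.56), Hdac4 (-2.19) and Chrnd (-1.95). The choice of lists fixed this outcome. Among list genes above 0 in both libraries, the lowest outside the denervation list was Xirp1 (-1.49). Runx1 and Hdac4 are transcriptional regulators and Chrnd is an acetylcholine receptor subunit. The lists were chosen with earlier results known, and a link between Ankrd1 and these genes was not tested. In bulk tissue, fewer fibres of a type and less RNA per fibre cannot be told apart.

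Markers of the labelled tissue were high in both libraries: 9 of 9 skeletal muscle markers were measured and lay within 2-fold, with a summed level of 1319692 FPKM in CR and 1002697 FPKM in control, a ratio of 1.32. Adipocyte markers were at least 2-fold higher in CR for 8 of 9 genes, with sums of 19081 FPKM in CR and 4149 FPKM in control and Adrb3 listed at 0 in control. Smooth muscle markers were at least 2-fold higher for 3 of 5 measured genes, with sums of 2556 FPKM in CR and 1376 FPKM in control. Tendon and fibroblast markers were mixed, with 1 of 9 higher and 3 lower and sums of 5485 FPKM in CR and 4474 FPKM in control. Of 9 cardiac markers 3 were measured; Myh6, whose close paralog Myh7 can share its reads, made up most of their sum of 18527 FPKM in CR and 1804 FPKM in control, Tnnt2 stood at 67.1 FPKM in CR and 139 FPKM in control, and the other 6 were not analysed here. Endothelial markers summed to 2090 FPKM in CR and 1396 FPKM in control, macrophage markers to 274 and 211 FPKM, Schwann cell markers to 604 and 468 FPKM and satellite cell markers to 262 and 363 FPKM in CR and control. The part of these markers in the differences of Csrp3, Myoz2 and Ankrd1 was not tested.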

How the data were processed

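Poly(A) RNA from thigh muscle was sequenced in 1 CR and 1 control library. Reads were aligned to mm9; TopHat 1.2.0, Cufflinks and Cuffdiff are named in the submitters' processing notes, without options or annotation. Each locus has an FPKM value for each library in the deposited table, per the file headers. Their lowest value is exactly 1, so 1 was subtracted; this offset is inferred from the values. Sequencing depth is unknown, so counting intervals cannot be had.

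Of 23672 loci, 10548 with a single symbol were summed by symbol to 10543 genes, and the 10533 whose mean reached 1 FPKM were kept. The log2 ratio of CR over control was taken on FPKM + 1, and at least 2-fold was counted. With 1 library per group no test was run. The threshold was not tested against the spread of these data, which 1 library per group cannot give. Comparison lists (17 in number) were matched by symbol or RefSeq synonym. The genes, lists and motifs were chosen with earlier results of these data known. All 10 genes are named. Of each list, up to 3 genes with the largest ratios (mean at least 100 FPKM, above 0 in both libraries) and the most abundant one could be named, though not all are, and so could the 3 list genes nearest to a described gene in log2 ratio and loci overlapping or next to it; exceptions are marked where they are named. Promoter windows came from RefSeq (GRCm38.p6) by symbol, and 76-base windows from GENCODE M21; no coordinates were moved between builds. Alternatives were 3 rescalings, filters at 10 and 100 FPKM or none, pseudocounts of 0.1 and 5 FPKM, the largest locus of a symbol and, added after the data were seen, genes above 0 in both libraries. Python 3.11.15 with numpy 2.4.6, pandas 2.3.3 and matplotlib 3.10.9 was used.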

Additional observations from a re-analysis of the deposited data

Results flagged for a closer look

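An unnamed locus of 83 bases on mm9 chromosome 14 (21478450 to 21478532), within the span of Synpo2l and next to Myoz1, was listed at 827 FPKM in the CR library and at 0 in the control library. It was flagged as a value in a locus that no comparison used. The locus is little longer than a 76-bp read and shorter than the fragments of 200 nt. Because FPKM is scaled by length, few fragments can give a high value there. Synpo2l itself stood at 852 FPKM in CR and 942 FPKM in control. Ttn and Neb, abundant in muscle, were also listed at 0, in both libraries, and no fold is given against a 0.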

How the results depend on the processing

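All 10 genes kept their side of the 2-fold threshold in the 10 other settings tried. Only the 3 rescalings could shift them to any extent. The filters, the largest locus and the limit to genes above 0 left their log2 ratios unchanged, and the pseudocounts nearly so. Across the 10 settings, the log2 ratio of Csrp3 ranged from 1.61 to 2.03 and that of Myoz2 from 1.46 to 1.89. That of Ankrd1 ranged from -2.78 to -2.36, and Myoz1 and Fhl2 were the 2 genes whose sign changed. Scaling to equal sums of the skeletal muscle markers moved the log2 ratios of the 10 genes most: the median log2 ratio over all genes went to -0.42 and that of the 10 genes to -0.33, and all genes at least 2-fold higher and lower in CR numbered 525 and 1918, so that 21.5% of genes past 2-fold were higher, against 42.9% (844 and 1124) without it. That shift applies to every gene alike, so differences between the 10 genes, the paralog ratios included, did not depend on it. Under it Z-disc genes at least 2-fold lower numbered 6 rather than 3, and partners of titin and the M-band 5 rather than 2. The share of all genes kept that were at least 2-fold lower also went to 18.2% under this scaling, from 10.7% without it. A filter at a mean of 100 FPKM left 390 genes higher and 417 lower, and keeping genes above 0 in both libraries left 674 lower, since fewer genes were counted. The median of the 2 measured satellite cell markers reversed to -0.65 under these last 2 settings, in which the marker listed at 0 dropped out. No paired analysis was possible because each group has 1 library. Without replicates and with unknown depth, no gene's difference can be set against sampling or animal-to-animal spread.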

Other observations

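The locus beside Ankrd1 and the locus beside Csrp3 did not share the direction of their neighbour. Rpp30, within 10000 bases of Ankrd1, stood at 374 FPKM in CR and 201 FPKM in control, a difference within 2-fold, while Ankrd1 was lower in CR. Zdhhc13, near Csrp3, was listed at 0 in CR and stood at 119 FPKM in control, while Csrp3 was higher in CR. No other locus of the table lay within 10000 bases of Myoz2. The merged locus of Des and Speg, left out of the lists because it holds 2 symbols, stood at 18609 FPKM in CR and 22742 FPKM in control.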
